A study of Mus musculus with 24 samples.

Results

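Normal lumbar spinal cord was compared with normal cortex across all genes in 6 of the 24 RNA sequencing libraries of a mouse series: 3 spinal cord and 3 cortex libraries from control mice at 6 months of age, chosen by their labels alone. The series was made to study poly-PR, a dipeptide repeat protein made in C9orf72 amyotrophic lateral sclerosis and frontotemporal dementia, and the control mice serve there as the reference for mice that express GFP-PR28 in neurons. Control mice, labelled WT, carried the GFP-PR28 transgene behind a floxed stop without Thy1-Cre and were littermates on a C57BL/6 background, and the heterozygous mice used for comparison further on carried Thy1-Cre as well, which removes the stop in neurons. The labels give the tissues as cortex and spinal cord, while the study's text describes the cord as lumbar. The label of each library gives 1 tissue and 1 number and does not name the mouse. Differences between libraries of a tissue can therefore hold differences between mice, dissections and library preparations together.

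The cortex derives from the telencephalon and the cord from the caudal neural tube, and transcription factors that patterned these regions in the embryo are partly kept on in adult neurons. Hox genes mark the axis from the hindbrain backwards, while Emx1 and Tbr1 mark telencephalon and its glutamatergic neurons. The cord adds long myelinated tracts, motor neurons that leave through the ventral roots, sensory fibres that enter from ganglia outside it, and inhibitory neurons that release glycine beside GABA.

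The deposited counts summed to 18490468, 21058595 and 20922825 in cortex 1, 2 and 3 and to 20612925, 20567607 and 22316943 in cord 1, 2 and 3. Levels are given as CPM, the usual unit of counts scaled to library size, here with sizes adjusted by TMM, a scaling that sets the bulk of genes equal between libraries. Log2 fold changes are cord over cortex, so that positive values are higher in cord. With plain library totals as the scale, the median log2 fold change over all tested genes was 0.12 in place of -0.02. The CPM of genes and lists and their log2 fold changes are on the TMM scale unless another scale or tool is named. Levels and shares per length are scaled to the length-scaled total of each library, without TMM.

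The libraries grouped by their labels. Spearman correlations of log2 CPM across genes ran from 0.980 to 0.995 between libraries of a tissue and from 0.919 to 0.933 between tissues, where genes are not independent replicates. The first principal component held 84.5% of the variance and separated the tissues, and the second held 9.22%. Xist, which silences the second X chromosome of females, lay between 0.0576 and 0.345 CPM, and Ddx3y on the Y chromosome between 42.3 and 68.7 CPM, so each of the 6 libraries had the profile of male tissue.

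Several libraries stood apart from their mates before any comparison between tissues. Cortex 1 had the largest spread, with an SD of 0.479 for its log2 differences from the mean of the other cortex libraries over 14079 genes, against 0.316 in cortex 2 and 0.346 in cortex 3 and 0.201 to 0.228 in the cord libraries. These differences in cortex 1 correlated at -0.635 (Spearman, across genes, which are not independent) with transcript length, so long transcripts were low in it. The summed CPM of cytosolic ribosomal protein genes, a list with short transcripts chosen after values were seen, was 9961 in cortex 1 against 5338 and 5667 in cortex 2 and 3 and 5501, 6175 and 6113 in cord 1 to 3. Gabrb2, a GABA-A receptor subunit with a long transcript, stood at 18.6 CPM in cortex 1 against 98.5 and 98.4 CPM in its mates.

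Marker genes of tissue next to the dissected regions also differed between libraries of a tissue. Summed choroid plexus markers were at 103, 29.0 and 1467 CPM in cortex 1, 2 and 3, and summed striatal markers at 420, 431 and 939 CPM, so cortex 3 was high for both. Summed dorsal root ganglion markers were at 10.8, 62.6 and 14.6 CPM in cord 1, 2 and 3 and summed Schwann cell markers at 844, 1875 and 1292 CPM, so cord 2 was high for both. Cord 1 held the most Gabra6, a marker of cerebellar granule cells, at 17.9 CPM against 0.515 and 4.52 CPM in cord 2 and 3. It also held the most Slc17a7, at 32.4 CPM against 4.54 and 6.67 CPM. The part of these library differences in the regional results was not tested as a cause, and for some of the genes and lists that move with 1 library, values without it are given below. The plot of summed marker levels shows these libraries beside lists that were level within each tissue.

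**Figure D1:**
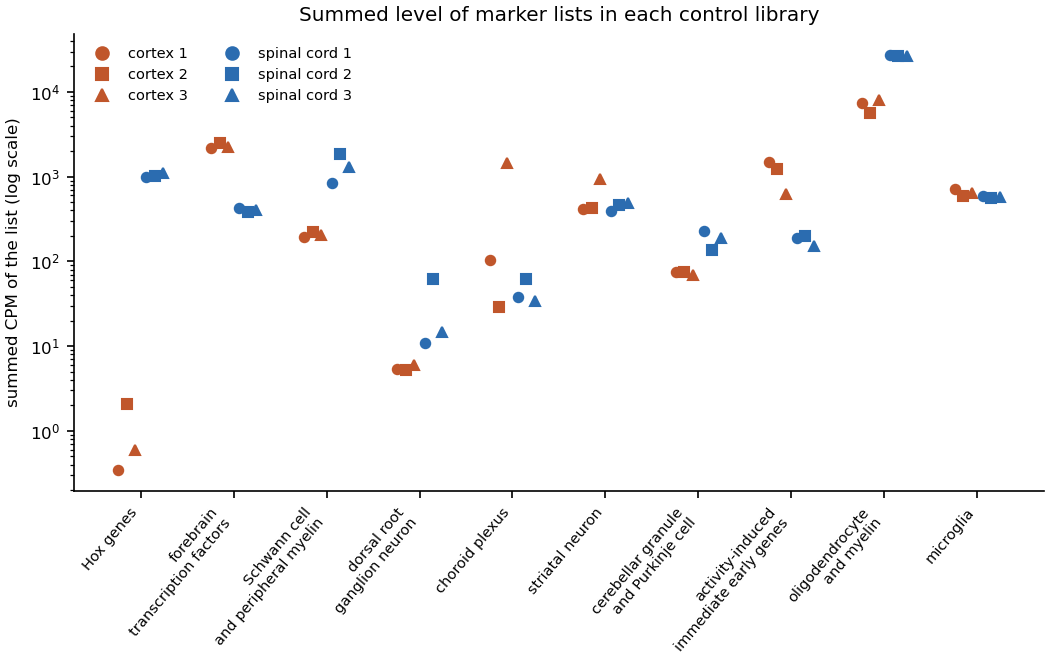
Summed CPM (log axis) of 10 marker lists in the 6 control libraries, with orange for cortex, blue for spinal cord and the marker shape for the library number. Cortex 3 is high for choroid plexus (1467 CPM) and striatal markers (939 CPM), cord 2 for dorsal root ganglion markers (62.6 CPM), and the microglia sums lie between 554 and 716 CPM in both tissues. The cerebellar list was added after values were seen.

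Of 17416 genes tested, 1899 (10.9%) were called higher in cord and 1522 (8.74%) higher in cortex, where a call needed a Benjamini-Hochberg adjusted p under 0.05 and a difference of over 2-fold. These shares over all genes are the reference for each count of called list members below. At any fold, 7200 genes passed the adjusted p. The groups did not overlap for 3401 of the 3421 called genes, beside 9547 (54.8%) of all genes tested. Among called genes, 361 were at least 8-fold higher in cord and 225 at least 8-fold higher in cortex. Protein-coding genes made up 1626 and 1235 of the calls in cord and cortex from 14937 tested, lincRNAs 76 and 75 from 453, and antisense transcripts 79 and 86 from 577.

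**Figure D2:**
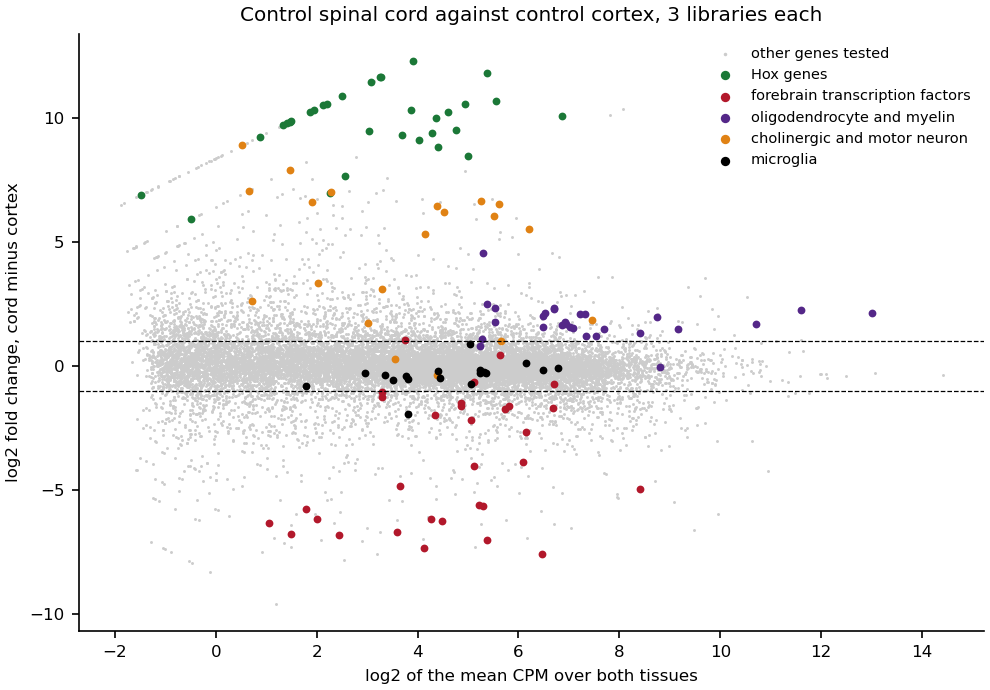
Log2 fold change, cord minus cortex, against the log2 of the mean CPM over both tissues for 17416 tested genes, with 5 lists in colour and dashed lines at a 2-fold difference. Hox genes lie at the top, forebrain transcription factors at the bottom, and microglia markers near 0. For genes with no count in cortex the fitted value depends on the prior count and is no bound.

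Hox genes, which encode homeodomain factors of the body axis, gave the largest differences. Their summed level was 0.345, 2.05 and 0.591 CPM in cortex 1 to 3 and 1004, 1033 and 1100 CPM in cord 1 to 3. All 3 cord libraries lay far above all 3 cortex libraries, and cortex 2 was the highest of the cortex libraries. Of 39 Hox genes 32 were tested, and 22 of the 39 had counts in cord and none in cortex. None of the 32 reached the level of the filter on low counts (0.482 CPM) in any cortex library, so each entered the test through the cord libraries alone. All 32 were called higher in cord, a count to which the filter contributed, and without the filter 33 of the 39 were. The median fitted log2 fold change of the 32 was 9.93, or 8.49 with genes at no cortex count set to their lower bound. Fewer cells of a type and less RNA per cell cannot be told apart in bulk tissue, here and for every gene below.

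Hoxd10, a lumbar Hox gene on chromosome 2, had no count in any cortex library and stood at 18.9, 33.9 and 37.9 CPM in cord 1, 2 and 3. That is at least 584-fold higher in cord with a floor of 3 counts over the cortex group (adjusted p 1.72e-05). Such floors, and the intervals given for genes with 1 to 3 counts, cover counting error only. Hoxb8 had the highest count of the family, with 0.115, 0.450 and 0.0492 CPM in cortex and 214, 229 and 256 CPM in cord. It was separated between the tissues in all libraries, with a log2 fold change of 10.09 (adjusted p 2.12e-07).

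The cord libraries differed among themselves for some posterior Hox genes, named here after their values were seen. Hoxc11 had no cortex count and stood at 2.24, 8.67 and 16.6 CPM in cord 1, 2 and 3, and Hoxd11 at 3.38, 9.28 and 13.7 CPM. Cord 1 was lowest for both of these posterior genes, and for Hoxc12, which was not tested, it had 0.0457 CPM against 2.86 and 5.03 CPM. Hoxc11 was at least 179-fold and Hoxd11 at least 171-fold higher in cord. Without cortex 1, their adjusted p rose from 0.00161 to 0.126 and from 0.000435 to 0.0601, and 30 of 34 tested Hox genes were called in that fit.

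**Figure D3:**
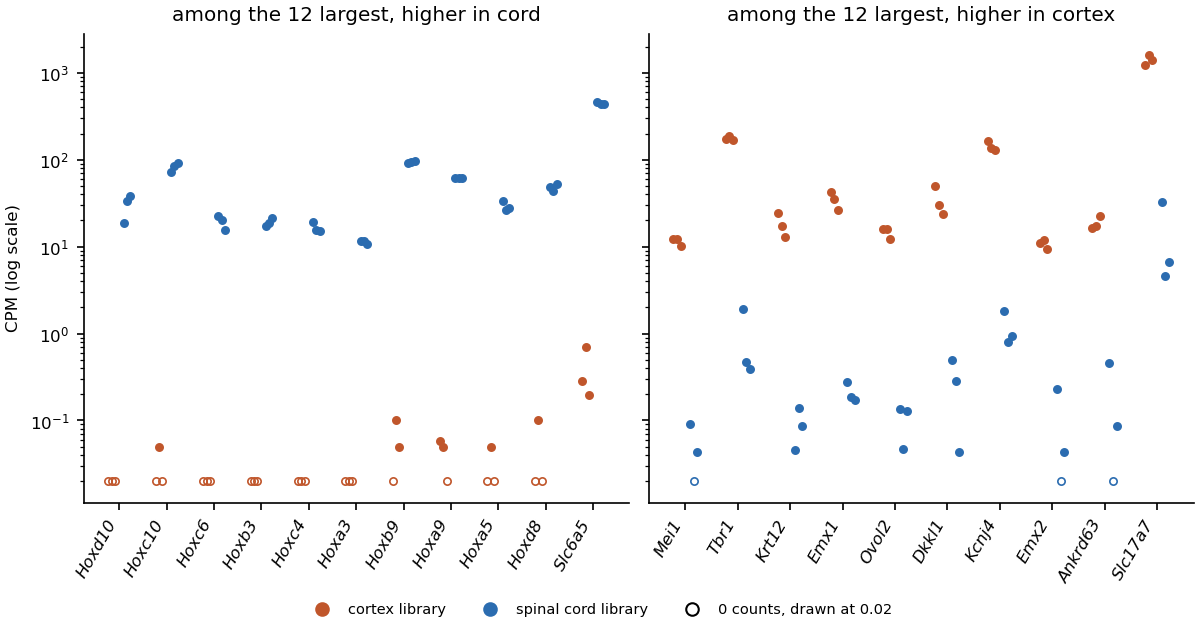
CPM (log axis) in each control library for genes among the 12 with the largest called difference in each direction, orange for cortex and blue for spinal cord, with open points for libraries at 0 counts. In all genes shown the cortex and cord libraries are apart, and Slc17a7 ran from 4.54 to 32.4 CPM within the cord.

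Promoters are shown for a gene of the cord and a gene of the forebrain, since Hox genes and forebrain factors are regional transcription factors with opposite differences. Of 39 Hox genes 22 and of 31 forebrain transcription factors 22 had a promoter in the RefSeq table (300 bases around a start given by RefSeq). A GENCODE transcript start lay inside 21 of the 22 Hox windows and 16 of the 22 forebrain windows, beside 87.2% of all windows with a symbol in GENCODE. Among 27025 promoters of all genes the median number of CG pairs was 7, with quartiles of 3 and 21, beside medians of 13.5 in the Hox promoters and 21.5 in the forebrain promoters. Below are the promoters of Hoxd10 (chr2:74691641-74691940, plus strand, 22 CG pairs) and Mef2c (chr13:83503784-83504083, plus strand, the first of 3 starts in the table, 1 CG pair) from GRCm38.p6, with CG pairs in capitals. The nearest GENCODE transcript start was 33 bases from the RefSeq start for Hoxd10 and the same base for Mef2c. A motif search for TATAAA on both strands matched 3 of the 22 Hox promoters and 2 of the 22 forebrain promoters, beside 14.2% of all promoters.
Hoxd10: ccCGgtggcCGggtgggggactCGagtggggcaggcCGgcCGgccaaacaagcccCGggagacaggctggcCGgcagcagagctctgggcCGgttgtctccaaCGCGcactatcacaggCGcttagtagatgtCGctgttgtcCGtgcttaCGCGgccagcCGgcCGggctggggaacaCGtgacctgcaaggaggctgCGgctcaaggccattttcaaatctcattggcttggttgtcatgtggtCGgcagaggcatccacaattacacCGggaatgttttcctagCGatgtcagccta
Mef2c: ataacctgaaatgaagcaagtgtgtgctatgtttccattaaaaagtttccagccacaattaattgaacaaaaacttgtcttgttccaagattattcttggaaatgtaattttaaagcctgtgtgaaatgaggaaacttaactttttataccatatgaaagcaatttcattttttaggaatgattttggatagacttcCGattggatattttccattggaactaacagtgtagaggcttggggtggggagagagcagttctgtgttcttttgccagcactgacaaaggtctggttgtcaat

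Forebrain transcription factors differed in the other direction. Of 31 members, all tested, 26 were called higher in cortex and 1 higher in cord, 7 of the 31 were under the level of the filter in every cord library, with a median log2 fold change of -4.01 beside -0.02 over all tested genes.

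Tbr1, a factor of deep-layer glutamatergic neurons, stood at 171, 186 and 170 CPM in cortex and 1.92, 0.468 and 0.387 CPM in cord. Cord 1 was the highest cord library and far under the cortex, and the log2 fold change was -7.57 (adjusted p 1.88e-06), or -8.66 without cord 1. Emx1, a homeodomain factor of the dorsal telencephalon, stood at 42.1, 35.3 and 26.5 CPM in cortex and 0.274, 0.187 and 0.172 CPM in cord. Its groups were far apart, with a log2 fold change of -7.32 (adjusted p 4.45e-07). Mef2c, whose promoter is shown above, had the most counts of the list, at 595, 748 and 627 CPM in cortex and 27.0, 17.3 and 18.8 CPM in cord, and its log2 fold change was -4.96 (adjusted p 4.99e-07).

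Among factors of forebrain inhibitory neurons, Lhx6, a factor of cortical interneurons from the ganglionic eminence, was higher in cortex and stood at 20.5, 25.2 and 27.4 CPM in cortex and 0.640, 1.12 and 0.817 CPM in cord. It was separated in all libraries, with a log2 fold change of -4.82 (adjusted p 1.03e-06). Nr2f2, also expressed in interneurons, was the only member called higher in cord, at 9.96, 9.80 and 6.45 CPM in cortex and 17.1, 17.4 and 19.5 CPM in cord. Its groups did not overlap, but its log2 fold change of 1.04 fell to 0.88 without cortex 3 and to 0.98 without cord 3, under the 2-fold mark.

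Outside these lists, genes without a known role in regional identity were among the 12 largest differences toward cortex. Krt12, a keratin, stood at 24.7, 17.2 and 12.9 CPM in cortex and 0.0457, 0.141 and 0.0860 CPM in cord. Mei1, a gene needed in meiosis, stood at 12.1, 12.2 and 10.3 CPM in cortex and 0.0915, 0 and 0.0430 CPM in cord. Both were present in every cortex library and close to 0 in every cord library. Each was under the level of the filter in every cord library and entered the test through the cortex alone. Krt12 had a log2 fold change of -7.56 (adjusted p 2.29e-06), and Mei1, with 3 counts in cord, a log2 fold change of -7.82 (-8.66 without cord 1) and a ratio of 255 with a 95% counting interval of 86.8 to 1238 (adjusted p 1.44e-06). Kcnj4, an inward rectifier potassium channel, stood at 166, 135 and 130 CPM in cortex and 1.83, 0.796 and 0.946 CPM in cord, a log2 fold change of -6.91 (adjusted p 4.12e-07). Ovol2, Dkkl1 and Ankrd63 were also among these 12, with log2 fold changes of -7.06, -6.95 and -6.66, as was Emx2 of the forebrain list at -6.81. Cord 1 was the highest cord library for all 4, and without it the values were -7.27 for Ovol2, -7.71 for Dkkl1, -8.54 for Ankrd63 and -8.56 for Emx2. Ovol2, Ankrd63 and Emx2 also entered the test through the cortex alone.

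Transcription factors of spinal neurons ran the other way. Of 32 members 29 were tested, 23 of these were called higher in cord and 1 higher in cortex, and the median log2 fold change was 4.96. Of the 29, 18 were under the level of the filter in every cortex library and entered the test through the cord. Pax2, which marks inhibitory spinal neurons, stood at 0.173, 0.650 and 0.0985 CPM in cortex and 30.6, 34.6 and 36.4 CPM in cord. Lmx1b, which marks excitatory dorsal horn neurons, stood at 0.518, 0.450 and 0.295 CPM in cortex and 18.1, 18.7 and 22.3 CPM in cord. Cord libraries were level and far above cortex in both, with log2 fold changes of 6.74 and 5.54 (adjusted p 1.97e-06 and 5.37e-07). Lbx1, a dorsal spinal factor, stood at 0.115, 0.250 and 0.0492 CPM in cortex and 16.5, 17.9 and 19.7 CPM in cord, a log2 fold change of 6.96 (adjusted p 8.77e-07). Satb1, which both regions expressed, was the member called higher in cortex, at 176, 190 and 178 CPM in cortex and 53.8, 56.6 and 59.4 CPM in cord, a log2 fold change of -1.68 (adjusted p 2.44e-06).

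Markers of cortical layers form a list that shares members, such as Fezf2, with the forebrain factors. Of 20 members 19 were in the table and tested, 11 were called higher in cortex and 1 in cord, and the median log2 fold change was -1.13. Fezf2, of layer 5 projection neurons, stood at 40.8, 33.7 and 39.0 CPM in cortex and 1.05, 0.281 and 0.258 CPM in cord, while Nxph4, used as a marker of the deepest layer, stood at 3.86, 2.85 and 6.50 CPM in cortex and 39.1, 47.8 and 47.1 CPM in cord. The tissues were apart for both in opposite directions, with log2 fold changes of -6.15 (adjusted p 3.01e-06; -7.10 without cord 1) and 3.34 (adjusted p 1.52e-05).

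Glutamate is loaded into synaptic vesicles by Slc17a7 in most cortical projection neurons and by Slc17a6 in the cord. Slc17a7 stood at 1230, 1600 and 1394 CPM in cortex and 32.4, 4.54 and 6.67 CPM in cord 1, 2 and 3. Slc17a6 stood at 27.0, 26.1 and 22.0 CPM in cortex and 182, 203 and 216 CPM in cord. The transporters were separated between the tissues in opposite directions, with cord 1 high among the cord libraries for Slc17a7. Log2 fold changes were -6.60 for Slc17a7 (adjusted p 0.000108; -7.96 without cord 1) and 3.00 for Slc17a6 (adjusted p 5.37e-07). Scaled by length, Slc17a7 made up 98.2% ± 0.331 (SD, n = 3) of the sum of both in cortex and 6.77% ± 7.24 in cord, where the 3 libraries ran from 2.19% to 15.1%.

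The promoters of this pair are shown because the genes share a role and differed in opposite directions. Slc17a7 had 13 CG pairs (chr7:45163671-45163970, plus strand) and Slc17a6 had 8 (chr7:51621580-51621879, plus strand, the first of 2 starts in the table), both from RefSeq on GRCm38.p6 with CG pairs in capitals, beside a median of 7 and quartiles of 3 and 21 over all promoters. The nearest GENCODE transcript start was 28 bases from the RefSeq start for Slc17a7, and for Slc17a6 it was 176 bases away and outside the window.
Slc17a7: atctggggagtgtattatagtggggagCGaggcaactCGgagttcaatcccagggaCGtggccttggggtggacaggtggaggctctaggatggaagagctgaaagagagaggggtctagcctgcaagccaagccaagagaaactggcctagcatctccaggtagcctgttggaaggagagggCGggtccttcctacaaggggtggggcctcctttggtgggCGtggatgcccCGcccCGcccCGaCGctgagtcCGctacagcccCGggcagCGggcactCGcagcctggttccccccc
Slc17a6: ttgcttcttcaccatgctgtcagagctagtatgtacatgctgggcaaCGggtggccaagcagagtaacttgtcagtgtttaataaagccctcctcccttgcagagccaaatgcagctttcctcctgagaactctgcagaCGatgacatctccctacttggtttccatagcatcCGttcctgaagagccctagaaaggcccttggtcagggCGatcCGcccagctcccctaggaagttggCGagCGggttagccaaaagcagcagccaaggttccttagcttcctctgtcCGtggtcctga

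The other genes listed with Slc17a7, among them the transporter gene Slc17a8, differed in its direction except for Slc17a6. In the list of 12 glutamate transporters and projection neuron genes, 11 were called higher in cortex and Slc17a6 alone higher in cord, with a median log2 fold change of -4.13. Those higher in cortex were 10 without the filter, and 10 without cortex 1, cortex 2, cortex 3 or cord 3. Camk2a, a kinase of excitatory synapses, stood at 3059, 4211 and 3959 CPM in cortex and 208, 178 and 208 CPM in cord. Nrgn, which binds calmodulin in dendrites, stood at 2378, 1902 and 1546 CPM in cortex and 40.1, 22.7 and 30.9 CPM in cord. Both were expressed in the cord but far under the cortex, with log2 fold changes of -4.24 and -5.96 (adjusted p 3.52e-07 and 7.78e-07).

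Genes of glycine transmission differed in both directions. Slc6a5, the glycine transporter of glycinergic terminals, stood at 0.288, 0.700 and 0.197 CPM in cortex and 466, 439 and 440 CPM in cord. Glra1, the adult glycine receptor subunit, stood at 0.115, 0.250 and 0.394 CPM in cortex and 67.5, 58.8 and 55.8 CPM in cord. For both the cortex was close to 0 in every library, and log2 fold changes were 10.12 and 7.84 (adjusted p 1.55e-07 and 2.12e-07). Slc6a9, the glycine transporter of glia, stood at 24.3, 31.3 and 38.0 CPM in cortex and 184, 194 and 179 CPM in cord, a log2 fold change of 2.57. Gldc, which breaks glycine down in astrocytes, ran the other way, at 24.5, 26.0 and 26.0 CPM in cortex and 4.25, 4.78 and 3.83 CPM in cord, a log2 fold change of -2.57. Of 12 genes of glycine transmission, all tested, 5 were called higher in cord and 1 higher in cortex, also without the filter, and 2 of the 12 entered the test through the cord alone.

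Genes of GABA synthesis were expressed in both regions. Gad1, which makes GABA, stood at 415, 424 and 369 CPM in cortex and 160, 165 and 194 CPM in cord, a log2 fold change of -1.22 (adjusted p 3.85e-05). Gad2, its second enzyme, stood at 120, 162 and 168 CPM in cortex and 115, 131 and 145 CPM in cord, where the groups overlapped (log2 fold change -0.20, adjusted p 0.303). The vesicular transporter Slc32a1, shared by GABA and glycine, stood at 86.6, 80.6 and 82.9 CPM in cortex and 153, 183 and 164 CPM in cord. Its groups were apart at a log2 fold change of 0.998 (adjusted p 6.93e-05), just under the mark for a call, and without cord 1 it was 1.06 and called, as it also was at 1.03 without cortex 1, 1.01 without cortex 3 and 1.01 without cord 3.

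Among markers of cortical interneuron classes, Vip stood at 69.8, 43.0 and 35.6 CPM in cortex and 2.74, 3.14 and 2.28 CPM in cord. Calb2, or calretinin, stood at 14.7, 8.95 and 6.89 CPM in cortex and 205, 222 and 212 CPM in cord. Cortex 1 was the highest cortex library for both, and the tissues were apart in opposite directions, with log2 fold changes of -4.18 and 4.39 (adjusted p 6.55e-06 and 2.60e-06). Pvalb stood at 152, 97.6 and 68.3 CPM in cortex and 76.0, 78.8 and 83.8 CPM in cord, where cortex 3 lay below every cord library and no difference was called (log2 fold change -0.41, adjusted p 0.210). Sst stood at 325, 191 and 173 CPM in cortex and 77.0, 100.2 and 115 CPM in cord, a log2 fold change of -1.23 that fell to -0.90 without cortex 1. Of 17 genes of GABA synthesis and interneurons, all tested, 9 were called higher in cortex and 2 higher in cord, at a median of -1.22, with 1 higher in cord without cortex 2. Of the 17, 1 entered the test through the cortex alone, and without the filter the calls were 9 and 3.

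Genes of cholinergic and motor neurons were called higher in cord in 18 of 20 members, with a median log2 fold change of 5.77, or 5.65 with bounded values. Of the 20, 5 were under the level of the filter in every cortex library and entered the test through the cord, and without the filter 18 were also called. Slc18a3, the vesicular acetylcholine transporter, stood at 0.230, 0.700 and 1.28 CPM in cortex and 72.7, 81.1 and 74.9 CPM in cord, and the peripheral filament gene Prph at 1.84, 0.400 and 0.935 CPM in cortex and 81.9, 116 and 91.3 CPM in cord. Both groups were far apart, with log2 fold changes of 6.64 and 6.54 (adjusted p 1.07e-06 and 2.09e-06).

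Peptides and receptors of the dorsal horn were mostly higher in cord, with 17 of 26 tested members called in that direction and 5 in the other (median log2 fold change 1.31). Of the 26, 5 entered the test through the cord alone, and without the filter 16 of 27 were called higher in cord. Nts, which encodes neurotensin, stood at 0.23, 0.20 and 0.64 CPM in cortex and 14.2, 14.4 and 14.5 CPM in cord. Its 3 cord libraries were level and the log2 fold change was 5.29 (adjusted p 3.90e-06). Tac2, which encodes neurokinin B, stood at 9.50, 6.05 and 5.51 CPM in cortex and 16.8, 32.8 and 34.5 CPM in cord, with cord 1 the lowest cord library and no overlap (log2 fold change 2.00, adjusted p 0.000783). Cck and Npy, peptides shared with cortical interneurons, were among the 5 exceptions. Cck stood at 655, 385 and 378 CPM in cortex and 44.1, 43.9 and 47.0 CPM in cord, and Npy at 135, 112 and 104 CPM in cortex and 11.2, 16.1 and 19.6 CPM in cord, with log2 fold changes of -3.39 and -2.90. Penk, which encodes enkephalins and also marks the striatum, stood at 48.1, 40.4 and 94.5 CPM in cortex and 162, 217 and 242 CPM in cord. Cortex 3 was its highest cortex library, and the log2 fold change of 1.76 (adjusted p 0.00159) was 2.24 without cortex 3 and lost its call without cortex 1 (1.62, adjusted p 0.0799).

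Neurofilaments, which set the calibre of large axons, were high in the cord. Nefh, the heavy chain, stood at 141, 152 and 107 CPM in cortex and 1542, 1559 and 1506 CPM in cord, Nefm at 359, 402 and 369 CPM against 2547, 2666 and 2474 CPM, and Nefl at 446, 391 and 355 CPM against 1580, 1647 and 1563 CPM. The difference was largest for the heavy chain, with log2 fold changes of 3.53, 2.77 and 2.01 (adjusted p 5.75e-07, 3.17e-07 and 2.41e-06). On a scale of counts per length, where each library sums to the same total, Nefh rose from 111 in cortex to 1426 in cord and Nefl from 392 to 1751, so the chains were nearer to each other in level in cord. Ina, a neurofilament partner in the central nervous system, also had groups apart, by less than 2-fold, at 237, 256 and 221 CPM in cortex and 331, 358 and 345 CPM in cord (log2 fold change 0.53, adjusted p 0.00206). In the list of 9 filament genes 7 were called higher in cord and none higher in cortex.

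Receptor subunits differed in both directions. Among 16 tested GABA-A receptor subunits, 4 were called higher in cortex and 3 higher in cord, with a median log2 fold change of -0.34. Of the 16, 3 entered the test through the cord alone, and without the filter the calls were 3 and 2. Gabra4, an alpha subunit of receptors outside synapses, stood at 116, 120 and 107 CPM in cortex and 16.4, 14.9 and 17.8 CPM in cord. Gabra5 stood at 53.8, 48.5 and 48.1 CPM in cortex and 65.6, 70.1 and 74.7 CPM in cord. The former was apart by a log2 fold change of -2.80 (adjusted p 4.75e-07) and the latter, also without overlap, by 0.48 (adjusted p 0.00444). Gabrq stood at 0.40, 0.30 and 0.25 CPM in cortex and 7.27, 8.43 and 9.07 CPM in cord, a log2 fold change of 4.70.

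Values of 3 other GABA-A subunits moved when single libraries were left out. Gabrb2, low in cortex 1, overlapped the cord at 21.6, 15.9 and 20.04 CPM, and its log2 fold change was -1.91 with all libraries (adjusted p 0.0159), -2.36 without cortex 1, and no longer called without cortex 2 (-1.61), cortex 3 (-1.61), cord 2 (-1.79) or cord 3 (-1.94). Gabra6 was at 0.230, 0.450 and 0.0492 CPM in cortex, and its log2 fold change of 4.94 (adjusted p 0.0114) was 3.35 without cord 1, the library highest for it, and was not called without cortex 1 (4.91) or cortex 3 (4.45). Gabrd, the partner of Gabra6 in cerebellar granule cells and of Gabra4 in the forebrain, stood at 119, 102 and 93.4 CPM in cortex and 13.3, 1.499 and 2.62 CPM in cord 1, 2 and 3. Its log2 fold change was -4.18 (adjusted p 0.000780), -5.65 without cord 1, and it stayed called in each of the 6 fits without 1 library.

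Ionotropic glutamate receptor subunits also differed in both directions, with 5 of 18 tested subunits called higher in cortex and 4 higher in cord. Grin2b, an NMDA receptor subunit, stood at 206, 299 and 297 CPM in cortex and 49.1, 41.5 and 49.8 CPM in cord, and Grin2d at 24.3, 31.8 and 27.1 CPM in cortex and 52.7, 62.6 and 64.3 CPM in cord. They were apart in opposite directions, with log2 fold changes of -2.52 and 1.11 (adjusted p 5.81e-06 and 0.000195), and Grin2b made up 71.9% of the length-scaled sum of both in cortex and 17.4% in cord. Grin3b, a subunit known from motor neurons, stood at 0.345, 0.450 and 0.148 CPM in cortex and 12.1, 8.90 and 7.74 CPM in cord, a log2 fold change of 4.91 (adjusted p 9.49e-06). It was the 1 subunit of the 18 that entered the test through the cord alone. Without the filter the list's calls were also 5 and 4. Grin2c, also a cerebellar granule cell gene, was at 55.3, 71.2 and 67.4 CPM in cortex and 75.0, 27.6 and 26.7 CPM in cord, where cord 1 lay above the cortex, and its log2 fold change of -0.58 (adjusted p 0.231) was -1.25 and called without cord 1.

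Of 11 tested voltage-gated sodium channel subunits, 3 were called in each direction. Scn2a1 (Scn2a), the channel of axons of projection neurons, stood at 205, 279 and 268 CPM in cortex and 79.9, 70.4 and 81.1 CPM in cord, and Scn4b, an auxiliary subunit that speeds repetitive firing, at 175, 228 and 285 CPM in cortex and 556, 573 and 518 CPM in cord. The groups were apart in opposite directions, with log2 fold changes of -1.70 and 1.26 (adjusted p 1.76e-05 and 0.000325).

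Among presynaptic release genes, some pairs of related genes exchanged places. Of 28 members, all tested, 11 were called higher in cortex and 4 higher in cord, and the median log2 fold change was -0.79. The pairs below were put together after values were seen, and shares are of the length-scaled sum of both genes, as the mean over 3 libraries ± SD. Syt1, the calcium sensor of fast release, stood at 1464, 1961 and 1822 CPM in cortex and 197, 213 and 241 CPM in cord, and its relative Syt2 at 121, 160 and 139 CPM in cortex and 720, 735 and 693 CPM in cord. Syt1 thus held 92.0% ± 0.319 of the pair in cortex and 21.7% ± 2.17 in cord, with log2 fold changes of -3.01 for Syt1 and 2.36 for Syt2 (adjusted p 1.09e-06 and 1.74e-06).

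Vamp2, the synaptobrevin of vesicles, stood at 1303, 1074 and 1049 CPM in cortex and 320, 346 and 385 CPM in cord, and Vamp1 at 298, 342 and 286 CPM in cortex and 1477, 1594 and 1502 CPM in cord. Vamp2 held 90.7% ± 1.38 of the pair in cortex and 38.0% ± 2.28 in cord. Sv2b, a vesicle glycoprotein, held 94.1% ± 1.46 in cortex and 29.1% ± 1.08 in cord beside Sv2c, which rose from 24.7, 33.4 and 46.7 CPM to 452, 427 and 400 CPM. No library of either tissue lay within the other tissue's range of these shares, and the log2 fold changes were -1.71 for Vamp2, 2.30 for Vamp1, -1.67 for Sv2b and 3.61 for Sv2c, each called.

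Other release genes changed without such an exchange. Stx1a, a syntaxin of the release site, stood at 469, 375 and 373 CPM in cortex and 20.5, 18.6 and 21.03 CPM in cord. It was far lower in every cord library (log2 fold change -4.34, adjusted p 2.12e-07). Cplx2, a complexin, stood at 1222, 1493 and 1434 CPM in cortex and 262, 285 and 296 CPM in cord, and Cplx1 at 1219, 1142 and 1046 CPM in cortex and 1413, 1535 and 1470 CPM in cord. Both were apart, Cplx2 by a log2 fold change of -2.30 (adjusted p 1.36e-06) and Cplx1 by 0.37 (adjusted p 0.0141), and Cplx2 held 35.1% ± 3.79 of that pair in cortex and 7.82% ± 0.339 in cord.

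**Figure D4:**
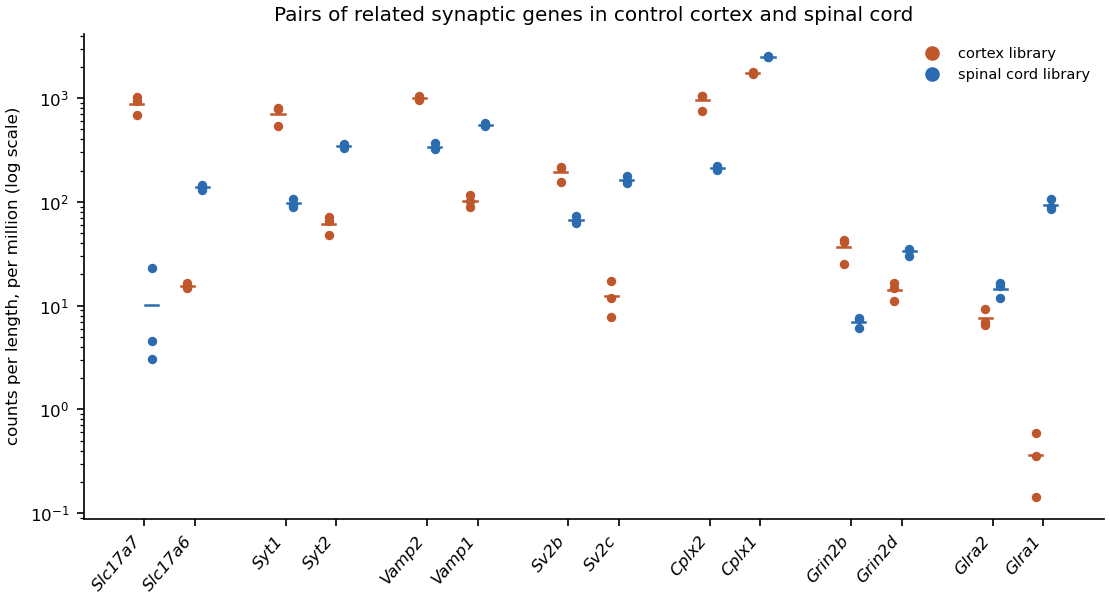
Counts per length (log axis) of 7 pairs of related synaptic genes, each point 1 library and each line the mean of 3, orange for cortex and blue for spinal cord. Syt1, Vamp2, Sv2b and Grin2b exceed their partners in cortex and fall below them in cord, as does Slc17a7, while Cplx1 exceeds Cplx2 in both tissues. The pairs were chosen after values were seen.

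Oligodendrocyte and myelin genes were higher in cord in 26 of 28 tested members, with a median log2 fold change of 1.74. Their summed level was 7450, 5581 and 8124 CPM in cortex and 27685, 26812 and 26677 CPM in cord. Mbp, the myelin basic protein gene and the most counted member, stood at 3345, 2455 and 3298 CPM in cortex and 13766, 13613 and 13163 CPM in cord. Cord libraries were level and cortex 2 was the lowest cortex library, and the log2 fold change of Mbp was 2.16 (adjusted p 4.57e-06). Klk6, a protease of mature oligodendrocytes, differed most in the list, at 3.57, 2.95 and 3.10 CPM in cortex and 73.4, 76.8 and 77.4 CPM in cord, a log2 fold change of 4.57 (adjusted p 1.55e-07).

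The 2 members that were not called were Opalin and Enpp2. Opalin, confined to myelin of the central nervous system in mammals, stood at 38.6, 21.6 and 22.2 CPM in cortex and 52.3, 44.2 and 46.1 CPM in cord, and its log2 fold change of 0.80 (adjusted p 0.0168) was 1.12 and called without cortex 1. Enpp2, which choroid plexus also expresses, stood at 294, 263 and 796 CPM in cortex 1, 2 and 3 and 461, 421 and 443 CPM in cord. Cortex 3, the library high in choroid plexus markers, lay above the cord and its mates below it, and the log2 fold change of -0.03 (adjusted p 0.956) became 0.68 without cortex 3 (adjusted p 0.00204). Of 10 markers of oligodendrocyte precursors 2 were called higher in cord, beside 10.9% of all genes tested, at a median of 0.34. Of these Bcas1, of newly forming oligodendrocytes, stood at 190, 137 and 169 CPM in cortex and 591, 560 and 545 CPM in cord, a log2 fold change of 1.77.

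Astrocyte markers split. Gfap, the filament of fibrous and reactive astrocytes, stood at 131, 96.3 and 158 CPM in cortex and 1257, 1196 and 1094 CPM in cord, and Agt, which encodes angiotensinogen, at 9.61, 6.65 and 8.17 CPM in cortex and 175, 205 and 201 CPM in cord. Slc1a3, a glutamate transporter of astrocytes, stood at 522, 536 and 514 CPM in cortex and 115, 109 and 125 CPM in cord, and Mfge8 at 224, 141 and 171 CPM in cortex and 36.4, 33.4 and 33.5 CPM in cord. Tissues were apart for all 4, upwards in cord for Gfap and Agt (log2 fold changes 3.20 and 4.57, adjusted p 2.60e-06 and 2.72e-07) and downwards for Slc1a3 and Mfge8 (-2.17 and -2.37, adjusted p 8.68e-07 and 9.02e-06). Slc1a2, the other main glutamate transporter, stood at 2097, 2608 and 2599 CPM in cortex and 1689, 1501 and 1588 CPM in cord, a log2 fold change of -0.61 (adjusted p 0.00257). Of 20 astrocyte markers 6 were called higher in cord and 2 in cortex, with a median of 0.53.

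Summed microglia markers were at 716, 595 and 638 CPM in cortex and 588, 554 and 577 CPM in cord. Every cortex library was above every cord library, at a median log2 fold change of -0.29. Of 18 members 1 was called, higher in cortex, beside 8.74% of all genes tested. P2ry12, a receptor of resting microglia, stood at 44.0, 41.5 and 39.1 CPM in cortex and 26.6, 22.7 and 26.1 CPM in cord. Its groups were apart at less than 2-fold (log2 fold change -0.72, adjusted p 0.000752). Fcrls, the called member, stood at 27.4, 17.4 and 22.5 CPM in cortex and 5.85, 4.83 and 6.75 CPM in cord, a log2 fold change of -1.94 (adjusted p 8.31e-05). Summed endothelial and mural markers were at 682, 709 and 719 CPM in cortex and 1047, 885 and 893 CPM in cord. Every cord library was above every cortex library, at a median log2 fold change of 0.49. None of the 18 was called by edgeR or DESeq2 (1 higher in cord without cortex 1), while 11 had an unadjusted p under 0.05 by edgeR, beside 8584 of all 17416 genes tested.

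Ependymal and meningeal markers were higher in cord in part. Foxj1, the factor of ciliated ependyma, stood at 8.35, 5.10 and 7.68 CPM in cortex and 39.7, 43.0 and 35.6 CPM in cord. Its groups were apart with a log2 fold change of 2.49 (adjusted p 1.15e-05), and 8 of 10 ependymal markers were called higher in cord, also without the filter, with 1 of the 10 tested through the cord alone. Dcn, of meningeal fibroblasts, stood at 15.4, 13.5 and 12.3 CPM in cortex and 59.4, 100.02 and 71.4 CPM in cord, while Slc22a6 stood at 9.90, 11.2 and 6.84 CPM in cortex and 1.01, 1.64 and 0.430 CPM in cord. These members of the meningeal list were apart in opposite directions, with log2 fold changes of 2.49 and -3.18 (adjusted p 1.76e-05 and 0.000249). In that list 6 of 12 were called higher in cord and 2 higher in cortex, with 1 higher in cortex without cortex 1.

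Schwann cells form myelin outside the central nervous system, and the genes of their list were higher in cord in 10 of 12 members with a median log2 fold change of 3.76. Sox10, among the 10, is also a called member of the oligodendrocyte and myelin list, so the list is not confined to peripheral myelin. Of the 12, 3 entered the test through the cord alone, and without the filter 10 were also called. The list's summed level was 196, 224 and 205 CPM in cortex and 844, 1875 and 1292 CPM in cord 1, 2 and 3. Prx, a Schwann cell scaffold, stood at 1.497, 1.90 and 2.41 CPM in cortex and 64.8, 184 and 118 CPM in cord. Cord 2 was the highest and cord 1 the lowest of the cord libraries, and the log2 fold change was 5.97 (adjusted p 8.88e-06), or 5.55 without cord 2. Whether root fragments were taken with the cord was not tested.

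Neurons of the dorsal root ganglion, whose fibres run in the same roots, were represented most in cord 2. Of 12 markers 6 were tested and 2 called higher in cord, at a median log2 fold change of 2.41 that was 0.85 without cord 2. Of the 6, 1 entered the test through the cord alone, and without the filter 2 of 12 were called higher in cord. The number called was 4 without cord 3, and 3 without cord 1 or cortex 3. The list summed to 5.30, 5.25 and 6.06 CPM in cortex 1 to 3, its most counted gene was Th, and 4 of its 12 members had no count in cortex. Of these Mrgprd had counts in cord 2 alone, at 1.97 CPM, and was at 0 in the other 5 libraries. Scn10a, a sodium channel of pain fibres that was not tested, stood at 0.230, 0.350 and 0.689 CPM in cortex and 0.274, 12.5 and 0.0860 CPM in cord. Avil, of sensory neurons, stood at 0.518, 0.700 and 0.591 CPM in cortex and 0.869, 13.96 and 0.559 CPM in cord. Apart from cord 2 the cord libraries lay within or next to the cortex range, and the log2 fold change of Avil was 3.06 with all libraries (adjusted p 0.0626), 0.24 without cord 2, and called at 3.57 without cord 1 and 3.60 without cord 3. Calca, which sensory and motor neurons share, stood at 0.921, 0.350 and 0.197 CPM in cortex and 25.4, 64.5 and 34.0 CPM in cord, with cord 2 the highest, and its log2 fold change was 6.43 (adjusted p 1.86e-05), or 5.96 without cord 2.

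Striatum and choroid plexus lie beside the cortex, and their markers depended on cortex 3. Of 13 tested striatal markers 6 were called higher in cortex and 2 higher in cord at a median of -1.04, and without cortex 3 the counts were 5 and 4 at a median of 0.02. Without cortex 1 they were 4 and 0, without cortex 2 they were 8 and 1, and without the filter 4 and 2. The most counted member was Penk, and none of the 14 in the table was at 0 in either tissue. Drd2, the dopamine receptor of indirect pathway neurons, stood at 0.81, 1.5 and 14.7 CPM in cortex and 10.2, 11.8 and 14.97 CPM in cord. Cortex 3 lay within the cord's range and its mates far under it, so the log2 fold change of 1.11 (adjusted p 0.306) was 3.40 and called without cortex 3.

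Among 10 choroid plexus markers 2 were called higher in cortex, at a median of -1.63, and without cortex 3 the counts were 2 higher in cortex and 3 higher in cord at a median of 0.34. Without cortex 2, 5 were called higher in cortex, without cord 1 it was 1, and none was called without cortex 1, cord 2 or cord 3, or without the filter. Ttr, the transthyretin gene and the most counted member, stood at 87.1, 19.7 and 1336 CPM in cortex and 9.88, 23.6 and 7.66 CPM in cord. Cortex 2 lay under cord 2, and the log2 fold change was -5.14 (adjusted p 0.0522), called at -1.94 without cortex 3 and at -5.71 without cortex 2. None of the 10 members was at 0 counts in either tissue. The part of choroid plexus and striatal RNA in other differences of cortex 3 was not tested.

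Remaining marker lists were mixed or small. A cerebellar list, added after values were seen, had 8 of 11 members called higher in cord, 7 without cord 1 (with 1 higher in cortex) and 5 without cortex 1 or without the filter, with 2 of the 11 tested through the cord alone. It summed to 74.7, 74.2 and 69.2 CPM in cortex and 230, 138 and 188 CPM in cord, with Zic1, a factor that spinal neurons share, as its most counted gene. Fat2, of granule cells, stood at 0.518, 0.700 and 0.394 CPM in cortex and 13.3, 0.656 and 2.54 CPM in cord. Its groups overlapped through cord 2, and the log2 fold change of 3.34 (adjusted p 0.0244) fell to 1.57 without cord 1 and lost its call without any single cortex library (3.32, 3.58 and 3.16 without cortex 1, 2 and 3). Of 9 hippocampal markers 1 was called in each direction, beside 10.9% of all genes tested called higher in cord and 8.74% higher in cortex. Of the 9, 1 was tested through the cortex alone, and without the filter 1 was also called in each direction. Those higher in cord were 2 without cortex 1 or cortex 3, and none was higher in cortex without cortex 3, cord 1 or cord 2. Of 3 tested serotonergic and catecholaminergic markers 2 were called higher in cord, and 1 without cortex 2 or cord 3. No red blood cell marker of 5 was called by edgeR or DESeq2 or had an unadjusted p under 0.05. Of 5 tested skeletal muscle markers, 1 of them tested through the cortex alone, 3 were called higher in cortex. The list's median log2 fold change was -2.05. That median was 0.85, 0.48 and 0.88 without cortex 1, 2 and 3 and 1.31 without cord 2, fits that tested 7 members and called 2, 1, 1 and 2 higher in cord and 2, 3, 3 and 3 higher in cortex. Without cord 1 and cord 3 it was -2.18 and -2.44 over 5 tested members, so no direction is given for this list. Th, which makes catecholamines, stood at 1.84, 1.10 and 1.97 CPM in cortex and 4.02, 10.1 and 9.59 CPM in cord, a log2 fold change of 2.27 (adjusted p 0.00148).

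**Figure D5:**
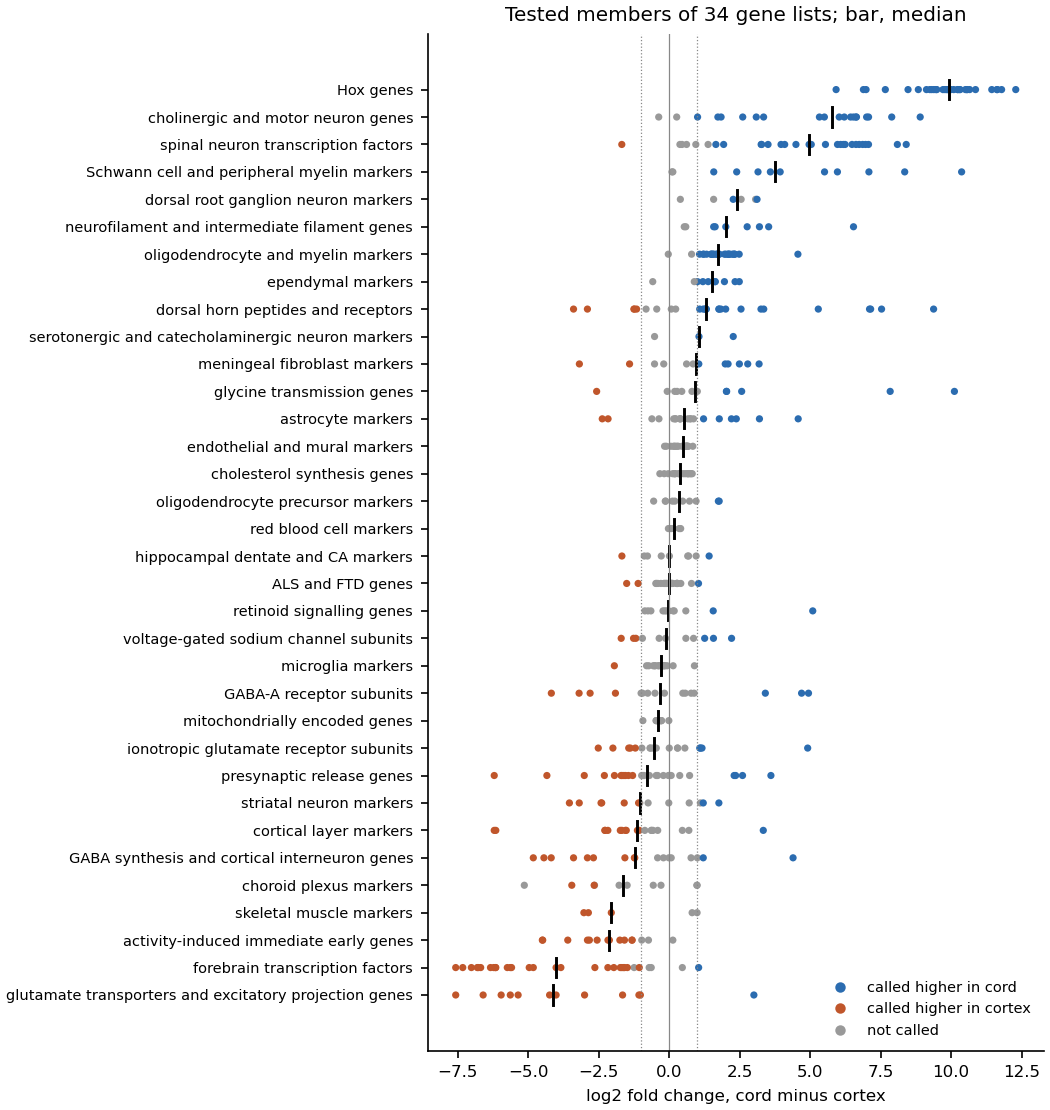
Log2 fold change, cord minus cortex, of the tested members of 34 gene lists, ordered by their median (black bar), blue for genes called higher in cord, orange for genes called higher in cortex and grey for genes not called. Hox genes (median 9.93) lead and the glutamate and projection neuron genes (median -4.13) close the order. Medians of the choroid plexus and striatal lists (-1.63 and -1.04) were 0.34 and 0.02 without cortex 3.

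Immediate early genes, which neuronal activity switches on within minutes, were higher in cortex in 12 of 15 members, with a median log2 fold change of -2.12. Arc, of active synapses and the most counted member, stood at 469, 426 and 181 CPM in cortex and 37.7, 31.8 and 19.5 CPM in cord. Cortex 3 was the lowest cortex library and still above the cord, and the log2 fold change was -3.60 (adjusted p 9.26e-05), or -3.90 without cortex 3. Egr3, at 35.6, 60.4 and 49.2 CPM in cortex and 2.88, 1.73 and 1.81 CPM in cord, was apart by -4.50 (adjusted p 3.12e-06). Fos stood at 42.9, 27.4 and 8.71 CPM in cortex and 16.1, 19.5 and 11.8 CPM in cord, where cortex 3 was the lowest of the 6 libraries, and its log2 fold change of -0.73 (adjusted p 0.239) was -1.14 and called without cortex 3. Over the 6 fits that each left out 1 library, 11 to 14 members were called higher in cortex, without the filter 10 were, and the state of each mouse at dissection is not given in the labels.

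Dusp1, a phosphatase of this list, stood at 65.6, 52.4 and 26.9 CPM in cortex and 20.3, 20.99 and 16.8 CPM in cord. The groups were apart with cortex 3 nearest to the cord, and the log2 fold change of -1.32 (adjusted p 0.00516) was -1.04 and not called without cortex 1 (adjusted p 0.0810). Promoters of 10 of the 15 genes were in the RefSeq table, and they were searched on both strands for the cyclic AMP response element TGACGTCA and for the serum response element, which activity-dependent factors are known to bind. The former matched 2 of the 10, Dusp1 and Btg2 (20%), beside 1.88% of all promoters, and the latter none of the 10, beside 1.57% of all promoters. TGACGTCA holds a CG pair, and the 10 promoters had a median of 27.5 CG pairs beside 7 over all promoters. The share over all promoters was not matched for CG pairs. The Dusp1 promoter (chr17:26508423-26508722, minus strand, GRCm38.p6, RefSeq) is shown with the match in capitals.
Dusp1: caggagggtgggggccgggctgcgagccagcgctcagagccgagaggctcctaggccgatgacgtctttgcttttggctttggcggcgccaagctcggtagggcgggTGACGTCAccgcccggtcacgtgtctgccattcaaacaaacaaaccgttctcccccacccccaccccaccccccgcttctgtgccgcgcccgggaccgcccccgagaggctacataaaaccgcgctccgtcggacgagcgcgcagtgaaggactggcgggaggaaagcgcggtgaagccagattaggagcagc

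Genes of amyotrophic lateral sclerosis and frontotemporal dementia, the diseases the series models, had a median log2 fold change of -0.01 beside -0.02 over all tested genes. Of 31 tested members 1 was called higher in cord and 2 higher in cortex, beside 10.9% and 8.74% of all genes tested, and 11 had an unadjusted p under 0.05, beside 8584 of 17416. 3110043O21Rik, the mouse C9orf72 gene, stood at 24.6, 23.4 and 22.6 CPM in cortex and 38.6, 39.3 and 44.4 CPM in cord. Every cord library was above every cortex library by less than 2-fold, a log2 fold change of 0.79 (adjusted p 0.000368). Tardbp, which encodes TDP-43, stood at 168, 175 and 167 CPM in cortex and 160, 142 and 147 CPM in cord, and no difference was called (log2 fold change -0.18, adjusted p 0.144).

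The called members were Optn, Kif5a and Anxa11. Kif5a, a kinesin of axonal transport, stood at 2914, 4207 and 4578 CPM in cortex and 1692, 1972 and 1788 CPM in cord, a log2 fold change of -1.10 that was -0.96 without cortex 3. Optn, an autophagy receptor, stood at 16.6, 23.6 and 22.1 CPM in cortex and 40.0, 44.9 and 43.4 CPM in cord, a log2 fold change of 1.04 that was 0.90 without cortex 1. Both had groups that did not overlap, and they sat at the 2-fold mark. Anxa11 was at -1.51 (adjusted p 0.000385). Thy1, whose promoter drives Cre in the heterozygous mice, stood at 778, 681 and 637 CPM in cortex and 536, 590 and 545 CPM in cord, a log2 fold change of -0.33 (adjusted p 0.0352).

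No member of 19 cholesterol synthesis genes was called by edgeR or DESeq2, and 11 had an unadjusted p under 0.05 by edgeR, beside 8584 of all 17416 genes tested (median log2 fold change 0.38). None of 13 protein-coding genes of the mitochondrial genome was called by either tool, and 9 had an unadjusted p under 0.05, beside the same 8584 of 17416 (median -0.38). Their summed level was 60314, 58595 and 49817 CPM in cortex and 41905, 43193 and 46314 CPM in cord, with every cortex library above every cord library. Without cortex 3 or cord 3, 1 of the 13 was called higher in cortex. In retinoid signalling 2 of 12 tested members were called, both higher in cord, beside 10.9% of all genes tested. Without cord 1, 1 was called higher in cortex. Of the 12, Crabp1 alone entered the test only through the cord, and without the filter 2 were also called higher in cord. Crabp1, a carrier of retinoic acid, stood at 0.345, 0.100 and 0.295 CPM in cortex and 6.31, 9.51 and 9.68 CPM in cord, and Aldh1a1, which makes retinoic acid, at 49.6, 51.5 and 51.3 CPM in cortex and 154, 146 and 150 CPM in cord. Both were apart in every library, with log2 fold changes of 5.09 and 1.56 (adjusted p 1.01e-05 and 2.55e-06).

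The genes at the highest level per length were nearly the same in both tissues. The top 10 held 18.3% of the length-scaled level in cortex and 17.3% in cord, and 9 of them were shared: mt-Co1, mt-Cytb, mt-Nd1, mt-Nd2, mt-Nd4, mt-Nd5, mt-Rnr1, mt-Rnr2 and Gm23935. In cortex mt-Nd6 completed the 10 and in cord Mbp, at 5917 ± 251 counts per length in cord against 1200 ± 206 in cortex (SD, n = 3). Gm23935 has an annotated length of 57 bases, which inflates its length-scaled level, and its CPM were 155, 418 and 132 in cortex and 527, 608 and 466 in cord. Its groups did not overlap, but the log2 fold change of 1.18 (adjusted p 0.0359) lost its call without cortex 1 (0.95), cortex 3 (0.90), cord 1 (1.19), cord 2 (1.08) or cord 3 (1.27). The ribosomal RNA mt-Rnr1 stood at 5092, 3190 and 2590 CPM in cortex and 1642, 1610 and 1514 CPM in cord, with cortex 1 the highest, and its log2 fold change of -1.19 was -0.86 without cortex 1.

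The same contrast was fitted in the 6 heterozygous libraries of these tissues, which share no library with the control comparison. Of 17247 genes tested there, 1929 (11.2%) were called higher in cord and 1541 (8.93%) higher in cortex. Called in both genotypes were 1425 genes higher in cord (75.0% of the control calls and 73.9% of the heterozygous calls) and 1197 higher in cortex (78.6% and 77.7%). Slfn2 alone was called in opposite directions, a gene named here after its values were seen. It stood at 2.53, 3.15 and 2.46 CPM in control cortex and 0.869, 1.499 and 1.38 CPM in control cord, with log2 fold changes of -1.12 in control mice (adjusted p 0.0113) and 1.17 in heterozygous mice (adjusted p 0.00649). The control call was lost without cortex 2 (-0.999) or cord 1 (-0.91). Of 3285 control calls tested in both, 3260 (99.2%) had the same sign. Log2 fold changes in heterozygous mice were -6.97 for Slc17a7, 2.97 for Slc17a6, 10.28 for Slc6a5, 2.11 for Mbp and 4.71 for Agt, near the control values. For Fcrls it was -0.32 (adjusted p 0.0924) beside -1.94 in controls, and for Penk 0.01 (adjusted p 0.967) beside 1.76.

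Whether the regional difference itself differed between genotypes was tested as an interaction over all 12 libraries. Of 18241 genes tested, 3 (2410018L13Rik, Ctss and Lmtk3) passed an adjusted p of 0.05 by edgeR, and 1133 had an unadjusted p under 0.05. With libraries of the same genotype and number taken as 1 mouse, none was called by edgeR (smallest adjusted p 0.0930, 876 at an unadjusted p under 0.05). Without that block, DESeq2 called 49 and edgeR without the filter 20. For Slfn2 and Fcrls the tools disagreed: the interaction was not called by edgeR (adjusted p 0.158 and 0.0575, or 0.398 and 0.0930 with the block) and was called by DESeq2 (0.00509 and 4.17e-05) and by edgeR without the filter (0.0165 and 0.000501). For Penk it was called by none of these (adjusted p 0.385 by edgeR, 0.0852 by DESeq2, 0.606 without the filter and 0.156 with the block).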

How the data were processed

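RNA sequencing libraries of 12 samples were used, 3 each of cortex and spinal cord from control and from heterozygous mice at 6 months. The 6 control libraries carry the main comparison. The values are raw counts per gene deposited by the authors, whose processing notes name Trimmomatic 0.30, HISAT2 2.0.1, HTSeq 0.6.1 and mm10. RNA was taken with TRIzol, libraries were made with NEBNext Ultra and read on a HiSeq. The HTSeq mode and strand setting and the Ensembl release are not given in the sources used, so a gene cannot be told apart from another gene that overlaps it: of 32 tested Hox genes 23 overlap another gene, 14 of them a gene on the other strand. Of 46078 identifiers 45229 (98.2%) were in GENCODE M21, which gave positions and exon lengths. Symbols were those deposited with the counts, and for 272 duplicated symbols the identifier with the most counts was taken.

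Total counts ran from 18490468 to 22316943 in the control libraries. Counts were fitted in R 4.3.3 with edgeR 4.0.16 (TMM, filterByExpr by tissue with a minimum count of 10 and a minimum total of 15, robust quasi-likelihood F test), and a call needed a Benjamini-Hochberg adjusted p under 0.05 and over 2-fold. The same test was run on the 6 heterozygous libraries, and an interaction of tissue and genotype on all 12. The code was tested on simulated data. Alternatives were DESeq2 1.42.0, its size factors, library totals, no filter, other thresholds, a replicate block, and leaving out each library. Alternatives chosen after seeing the data are named as such.

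Named genes were members of the gene lists, in each direction the 12 largest called log2 fold changes among genes with groups that do not overlap, at least 10 CPM in the higher tissue and no clone name, the 10 genes with the highest level per length in each tissue, and at most 6 interaction genes; not every gene of this rule is named. Lists were counted beside all tested genes without a set test, and members and lists were chosen with earlier results of these data known. The cerebellar and sex-linked lists, gene families and gene pairs were added after values were seen.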

Additional observations from a re-analysis of the deposited data

Results flagged for a closer look

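Across 12 libraries the difference between cord and cortex itself differed between control and heterozygous mice for 3 genes by an interaction test in edgeR. With libraries of the same genotype and number taken as 1 mouse, edgeR called none of the 3 or any other gene (smallest adjusted p 0.0930, 876 genes at an unadjusted p under 0.05). Without that block, DESeq2 called 49 genes and edgeR without the filter 20, with these 3 among both. 2410018L13Rik, a lincRNA on chromosome 12, stood at 1.78, 2.10 and 1.38 CPM in control cortex and 12.9, 15.5 and 13.5 CPM in control cord. In heterozygous mice it stood at 8.60, 14.9 and 13.4 CPM in cortex and 20.5, 18.8 and 17.7 CPM in cord. All heterozygous cortex libraries were above all control cortex libraries, and the regional log2 fold change was 2.99 in control and 0.63 in heterozygous mice, an interaction of -2.38 (adjusted p 0.00987).

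Ctss, which encodes the lysosomal protease cathepsin S, stood at 78.2, 59.5 and 63.7 CPM in control cortex and 74.7, 69.9 and 77.2 CPM in control cord. In heterozygous mice it stood at 53.3, 47.4 and 51.2 CPM in cortex and 110, 135 and 121 CPM in cord. The tissues overlapped in control mice (log2 fold change 0.14) and were apart in heterozygous mice (1.27), an interaction of 1.10 (adjusted p 0.0322).

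Lmtk3, a kinase gene, stood at 315, 339 and 330 CPM in control cortex and 181, 169 and 168 CPM in control cord. In heterozygous mice it stood at 770, 931 and 952 CPM in cortex and 211, 206 and 262 CPM in cord. Cortex was the higher tissue in both genotypes, by a log2 fold change of -0.93 in control and -1.96 in heterozygous mice, an interaction of -1.06 (adjusted p 0.0322).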

How the results depend on the processing

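The counts of called genes stayed within 1.5 times their value in the control comparison under DESeq2 size factors, library totals, no filter, DESeq2, non-robust dispersions, 12 libraries in 1 fit and a replicate block. DESeq2 called 1976 genes higher in cord and 1611 higher in cortex, and called 94.7% and 96.5% of the genes called by edgeR. Library totals gave 2245 and 1298, and kept 85.3% of the genes higher in cortex. Counts moved further only where the fold rule changed: with a log2 fold change over 0.2 they were 3615 and 3585, and with a glmTreat test against 2-fold 1006 and 906, which follows from the looser and the stricter rule.

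Leaving out each library in turn gave 1700 to 2076 genes higher in cord and 1463 to 1631 higher in cortex in control mice, and 1807 to 2216 and 1564 to 1646 in heterozygous mice, where the tissue left with 2 libraries was fitted with pooled spread. Chosen after seeing the data, the fits without cortex 1 and cord 1 together gave 1893 and 1679, and those without cortex 3 and cord 2 together 1768 and 1378.

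The interaction count of 3 was 49 with DESeq2, 20 without the filter and 0 with a replicate block by edgeR (876 at an unadjusted p under 0.05, smallest adjusted p 0.0930), and the cause was not tested. Same-number cortex and cord libraries correlated at -0.18, -0.06 and -0.03 in their deviations, and the labels do not say whether such libraries came from 1 mouse, so the main fits did not pair them.

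Among 167 tested genes followed over the alternatives, members of the lists or named in the text, Enpp2 alone changed sign over the alternatives run, from -0.03 to 0.094 with library totals, 0.0015 without the filter, 0.17 with a replicate block and 0.72 without cortex 3 and cord 2 together. Leaving out each library in turn gave Enpp2 values from -0.31 (without cortex 2) to 0.68 (without cortex 3), with 0.0047 without cord 2. The cause was not tested.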

Other observations

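Gene families by symbol were counted after values were seen. Of 79 tested potassium channel subunits 25 were called higher in cortex and 13 higher in cord, and of 24 voltage-gated calcium channel subunits 11 and 2. These counts stand beside 8.74% higher in cortex and 10.9% higher in cord over all genes tested. In each family 1 member was tested through the cortex alone. Without the filter the calls were 22 and 13 for potassium channels and 11 and 2 for calcium channels. Without cortex 2 or cord 2, 7 of these calcium channel subunits were called higher in cortex. Kcnh3 stood at 292, 250 and 237 CPM in cortex and 5.62, 1.499 and 1.38 CPM in cord, a log2 fold change of -6.52 (adjusted p 8.70e-06; -7.49 without cord 1) with all cord libraries below all cortex libraries.

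Of 12 tested complement genes 3 were called higher in cord and 1 higher in cortex, beside 10.9% and 8.74% of all genes tested. C3 stood at 0.29, 0.20 and 0.79 CPM in cortex and 52.5, 43.1 and 32.9 CPM in cord, apart in all libraries with a log2 fold change of 6.61 (adjusted p 2.09e-06). Of 43 tested collagen chains 15 were called higher in cord and 3 higher in cortex, beside the same 10.9% and 8.74%.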
